A study of Trametes sanguinea with 15 samples.

Results

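The genes described here are 2 of the 14165 gene models of Pycnoporus sanguineus CIRM-BRFM 1264, a white-rot basidiomycete that grows on wood. They were chosen by protein ID: GH131-CBM1 (protein 571793, gene model of 1301 bases) and GH74 (protein 1721886, 2437 bases). The names are family annotations that the study published for this strain. Mycelium was taken on day 3 of liquid culture, and transcripts were counted from poly(A) RNA in 15 libraries, 3 for each of 5 carbon sources. Cultures on maltose held 20 g/l of this sugar. Cultures on aspen wood, wheat straw, Avicel (a microcrystalline cellulose) or xylan-galactomannan (a mixture of hemicelluloses) held 2.5 g/l of maltose together with 15 g/l of the substrate, so maltose was present in every group. The study itself names each of its substrates as the sole carbon source. It describes independent triplicate cultures for maltose, Avicel, wheat straw and aspen. The sources used here do not say this of xylan-galactomannan, and p-values measure only the spread between the libraries.

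Cellulose, the main polymer of plant cell walls, is cut by secreted fungal glycoside hydrolases (GH), and xyloglucan, a glucan with xylose side chains, coats its fibres. Enzymes of family GH131, known from fungi, act on beta-glucans of several linkages, and the module CBM1 is a small carbohydrate-binding domain that attaches to cellulose. Enzymes of family GH74 cleave the xyloglucan backbone. No sequence or genome position of either gene is given, since none was used here.

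Levels are in CPM (the usual count of a gene relative to its library total, here scaled by TMM, a normalization in edgeR). CPM per kilobase (CPM divided by the gene model length) was used only where genes are set against each other. Library totals ranged from 24209984 to 50428442 counts, and both genes were among the 11724 tested. Xylan-galactomannan 2, xylan-galactomannan 1, maltose 3 and Avicel 1 correlated least with their own groups across genes (mean r 0.944 to 0.961). Avicel 1 also had the lowest TMM factor, 0.739, against a highest of 1.31.

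The GH131-CBM1 transcript was scarce on maltose and on xylan-galactomannan and abundant on Avicel. On maltose it had 9.43, 17.4 and 15.5 CPM in replicates 1 to 3. On xylan-galactomannan it had 22.1, 13.9 and 18.1 CPM. These ranges overlapped, and the underlying counts were 296 to 514 on maltose and 434 to 599 on xylan-galactomannan.

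On aspen the gene had 188, 139 and 121 CPM, and on wheat straw 257, 359 and 295 CPM. Every library on these plant materials was thus above every library on maltose or xylan-galactomannan. On Avicel it had 6051, 3492 and 3168 CPM. The Avicel libraries stood far above all the others, with the lowest of them 8.81 times the highest wheat straw library, and Avicel 1 stood 1.91 times above the lowest of its own group.

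The order of the mean levels of GH131-CBM1 was Avicel (4237 ± 1579 CPM, SD, n = 3), wheat straw (304 ± 51.7), aspen (149 ± 34.9), xylan-galactomannan (18.1 ± 4.14) and maltose (14.1 ± 4.17). Of the neighbours in this order, xylan-galactomannan and maltose did not differ beyond their spread. By CPM per kilobase, the gene ranked 26 to 32 among all 14165 gene models in the Avicel libraries and 6242 to 7702 in the maltose libraries.

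The GH74 transcript followed nearly the same order, except at its low end. On maltose it had 24.1, 24.8 and 22.3 CPM, and on xylan-galactomannan 14.3, 16.1 and 14.7 CPM. Both groups were tight, with a coefficient of variation of 5.43% and 6.08%, and every xylan-galactomannan library lay below every maltose library. The underlying counts were 553 to 758 on maltose and 292 to 503 on xylan-galactomannan.

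On aspen GH74 had 290, 164 and 142 CPM, and on wheat straw 343, 404 and 360 CPM. Aspen 1 stood apart from the other aspen libraries and near the wheat straw range, without reaching it. On Avicel GH74 had 3463, 2929 and 2449 CPM. The lowest Avicel library was 6.06 times the highest wheat straw library, and by CPM Avicel 1 was again the highest of its group. By percent of library counts, without TMM scaling, GH74 was highest in Avicel 2 (0.256, 0.275 and 0.237 in Avicel 1 to 3). GH131-CBM1 was highest in Avicel 1 by this measure too (0.447, 0.328 and 0.307).

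The mean levels of GH74 were 2947 ± 507 CPM on Avicel (SD, n = 3), 369 ± 31.6 on wheat straw, 198 ± 79.9 on aspen, 23.8 ± 1.29 on maltose and 15.0 ± 0.914 on xylan-galactomannan. By CPM per kilobase it ranked 91 to 123 in the Avicel libraries and 7995 to 8130 in the xylan-galactomannan libraries. Together both genes held 0.617 ± 0.0801% of all counts on Avicel, 0.0773 ± 0.0132% on wheat straw, 0.0426 ± 0.0172% on aspen, 0.00354 ± 0.000491% on maltose and 0.00293 ± 0.000124% on xylan-galactomannan.

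**Figure D1:**
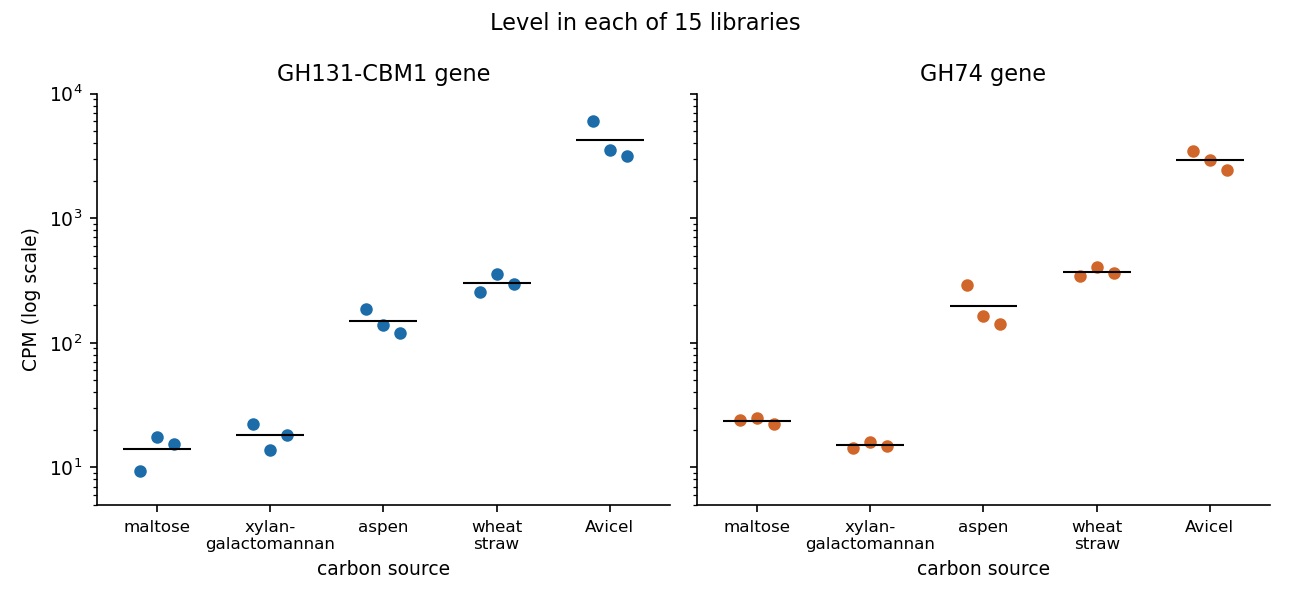
CPM of the GH131-CBM1 gene (left) and the GH74 gene (right) in each library, on a log axis, by carbon source. Points are libraries, placed from left to right as replicates 1 to 3, and lines are means of 3. In Avicel libraries GH131-CBM1 reaches 3168 to 6051 CPM and GH74 2449 to 3463 CPM, above every other library of the same gene.

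Growth on a substrate was first set against growth on maltose, the sugar control. The control held 20 g/l of maltose and the substrate cultures 2.5 g/l. Added substrate and less maltose therefore cannot be told apart in these contrasts. Both genes rose on Avicel, on wheat straw and on aspen. A gene was called where edgeR's quasi-likelihood test, fitted to all 15 libraries, gave an adjusted p under 0.05 (Benjamini-Hochberg over the genes tested) and an absolute log2 fold change above 1. The study annotated both genes as part of 1 node (gene cluster) of its self-organizing map. That map was trained on these same libraries, those on xylan-galactomannan excepted. Their direction in contrasts of those groups is therefore not independent evidence. Since RNA of whole mycelium was counted, more hyphae with a transcript and more transcript per hypha cannot be told apart.

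On Avicel, GH131-CBM1 was 300-fold higher than on maltose (log2 fold change 8.23 ± 0.42 SE, adjusted p = 5.33e-08). GH74 was 124-fold higher (6.95 ± 0.32, adjusted p = 2.3e-08). Both of the genes were called higher, as were 3.66% of all genes tested, and in both every Avicel library was above every maltose library, which held for 13.2% of genes. By size of increase they ranked 22 and 33 among the 11724 genes, where the median log2 fold change was 0.00.

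On wheat straw, GH131-CBM1 was 21.5-fold higher than on maltose (4.43 ± 0.36, adjusted p = 3.37e-06) and GH74 15.5-fold higher (3.96 ± 0.27, adjusted p = 1.08e-06). Both were called, against 9.8% of genes called higher, and both showed no overlap of libraries, as did 27.6% of genes in this direction. On aspen the increases were smaller, 10.6-fold for GH131-CBM1 (3.40 ± 0.34, adjusted p = 7.95e-06) and 8.35-fold for GH74 (3.06 ± 0.26, adjusted p = 3.08e-06). Both were called there too, where 14.4% of genes were called higher and 29% had every aspen library above every maltose library.

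On xylan-galactomannan neither gene was called against maltose. The map was not trained on the xylan-galactomannan libraries, although this contrast shares the maltose libraries. The genes were also chosen with earlier results of these data known. GH131-CBM1 had a log2 fold change of 0.35 ± 0.31 with a 95% interval from −0.32 to 1.03 (adjusted p = 0.477), and its libraries overlapped. GH74 had −0.66 ± 0.25 with an interval from −1.19 to −0.13 (adjusted p = 0.0844), or 1.58-fold lower. For GH74 every xylan-galactomannan library was below every maltose library, which was the case for 13.1% of all genes. In this contrast 5.87% of genes were called higher and 2.79% lower. DESeq2, a second count test, gave GH74 an adjusted p of 0.0325 at a log2 fold change of −0.67, and over all other settings tried the adjusted p ran from 0.0506 to 0.19.

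The substrates were then set against each other. Avicel exceeded wheat straw 13.9-fold for GH131-CBM1 (3.80 ± 0.35, adjusted p = 2.02e-05) and 7.99-fold for GH74 (3.00 ± 0.26, adjusted p = 1.63e-05). Both were called, against 4.91% of genes called higher on Avicel, and the libraries did not overlap, as for 25.2% of genes. Avicel is nearly pure cellulose, whereas straw also brings hemicelluloses and lignin.

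Avicel exceeded aspen 28.4-fold for GH131-CBM1 (4.83 ± 0.36, adjusted p = 1.54e-06) and 14.8-fold for GH74 (3.89 ± 0.27, adjusted p = 8.69e-07). Here 12.8% of genes were called higher on Avicel and 29.6% had all Avicel libraries on top, both genes included. Against xylan-galactomannan, the mixture of hemicelluloses, Avicel was 235-fold higher for GH131-CBM1 (7.88 ± 0.42, adjusted p = 5.67e-08) and 196-fold higher for GH74 (7.61 ± 0.33, adjusted p = 2.98e-08). These calls compare with 4.53% of genes called higher and 16.8% with no overlap in this direction.

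The difference between wheat straw and aspen was small. GH131-CBM1 was 2.04-fold higher on wheat straw (1.03 ± 0.31, adjusted p = 0.0254), which lies at the edge of the threshold for a call. GH74 was 1.86-fold higher (0.89 ± 0.25, adjusted p = 0.0153), which passed on p but not on fold and was not called. In all, 7.14% of genes were called higher on wheat straw, and 30.3% had every straw library above every aspen library, as both of these genes did. The GH131-CBM1 call was lost without aspen 2, aspen 3, wheat straw 2 or wheat straw 3 (log2 fold change 0.89 to 1.05, adjusted p 0.0565 to 0.0938). Without aspen 1 GH74 was called, at 1.27 and an adjusted p of 0.0017.

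Both plant materials exceeded xylan-galactomannan for both genes, and here GH74 had the larger fold changes. On aspen GH131-CBM1 was 8.27-fold higher (3.05 ± 0.34, adjusted p = 2.13e-05) and GH74 13.2-fold higher (3.72 ± 0.27, adjusted p = 2.06e-06). In that contrast 11.5% of genes were called higher and 26.3% did not overlap in this direction. On wheat straw GH131-CBM1 was 16.8-fold higher (4.07 ± 0.35, adjusted p = 8.67e-06) and GH74 24.5-fold higher (4.62 ± 0.28, adjusted p = 1.39e-06), where 9.6% of genes were called higher and 26.8% did not overlap. Over the 10 contrasts, GH131-CBM1 was called in 9 and GH74 in 8.

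**Figure D2:**
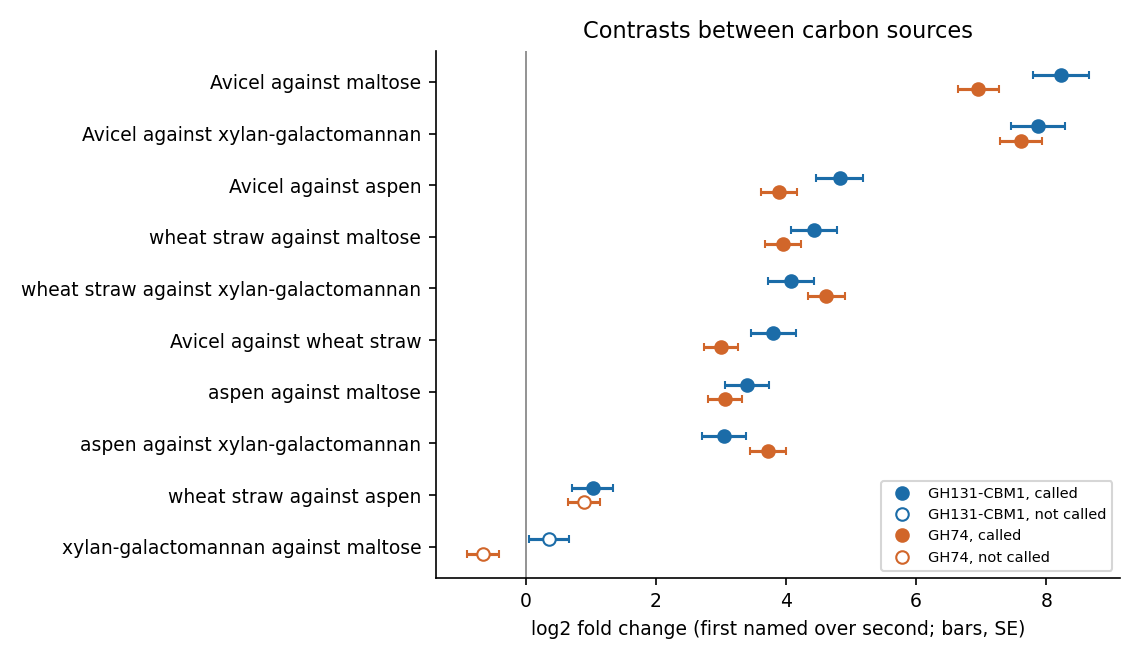
Log2 fold change of both genes in the 10 contrasts of carbon source, with SE as bars and the first-named substrate over the second. Filled points were called, open points were not. GH131-CBM1 has the larger change in the 3 contrasts of a substrate with cellulose against maltose, and GH74 in the contrasts of aspen and wheat straw against xylan-galactomannan.

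Whether both genes responded to the carbon source to the same degree was read from their ratio within each library, which does not depend on scaling between libraries. The ratio of GH131-CBM1 to GH74 in counts per length had its highest mean on Avicel and its lowest on maltose. On Avicel it was 3.27, 2.23 and 2.42 in replicates 1 to 3. On maltose it was 0.733, 1.31 and 1.31, so that the levels of both genes per kilobase were close there.

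On xylan-galactomannan the ratio was 2.89, 1.62 and 2.31, which overlapped the Avicel range although both transcripts were scarce. On aspen it was 1.22, 1.59 and 1.60, and on wheat straw 1.41, 1.67 and 1.54. These plant materials overlapped each other and lay below every Avicel library. Aspen also lay below every xylan-galactomannan library, but overlapped maltose.

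The mean log2 ratio was 1.38 ± 0.29 on Avicel (SD, n = 3), 1.14 ± 0.42 on xylan-galactomannan, 0.62 ± 0.12 on wheat straw, 0.54 ± 0.22 on aspen and 0.11 ± 0.48 on maltose. The ratio differed between carbon sources by an exact permutation test over all 1401400 divisions of the 15 libraries into 5 groups of 3 (p = 0.00293, on the sum of squares between groups). Avicel was above maltose by 1.27 on the log2 scale. Of the 10 pairs of carbon sources, 6 did not overlap, but with 3 libraries against 3 a two-sided exact permutation test cannot give a p below 0.1, so no single pair could pass the threshold. Leaving out each library in turn gave p-values from 0.000796 to 0.0111 and an Avicel to maltose difference from 0.99 to 1.41.

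**Figure D3:**
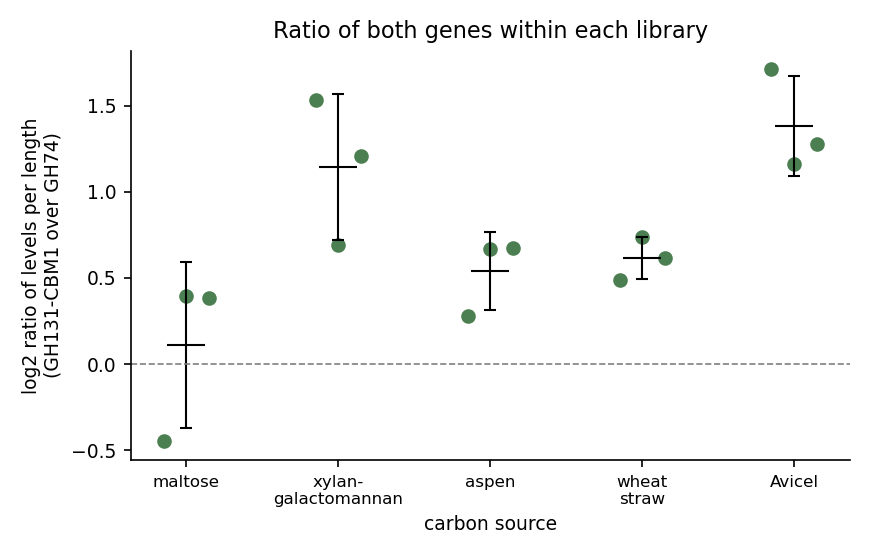
Log2 ratio of GH131-CBM1 to GH74, in counts per length with 1 read added to each count, in each library by carbon source. Points are libraries, and bars are mean ± SD of 3. All Avicel libraries lie above all maltose, aspen and wheat straw libraries, and maltose 1 is the only library below 0.

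Other genes of glucan and hemicellulose breakdown were counted from lists by enzyme family, taken from the genes that the study annotated on these samples. The cellulose and beta-glucan list has 8 genes and the hemicellulose list 7, and all of them passed the filter on low counts. Against maltose, the cellulose and beta-glucan list had 6 genes called higher on Avicel, 7 on wheat straw, 7 on aspen and 3 on xylan-galactomannan. The hemicellulose list had 4, 7, 6 and 6, in the same order. Over all genes tested, 3.66%, 9.8%, 14.4% and 5.87% were called higher in these contrasts, again in that order.

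In the change from maltose to Avicel, the cellulose and beta-glucan list had a median log2 fold change of 5.82 and the hemicellulose list 2.40, with 0.00 over all genes. The former list ran from −0.71 (GH16, not called) and 0.90 (GH17, not called) to 10.44. Its middle values were 3.37 (GH3 1577052) and 8.26 (AA8-AA3_1), so no gene lay near its median. The hemicellulose list ran from 0.02 to 7.25. GH131-CBM1 exceeded 4 of the 8 and all 7 of the other, and GH74 exceeded 4 and 6. Without Avicel 1 these numbers were 6 and 7 for GH131-CBM1 and 4 and 7 for GH74. CBM1-GH6, GH7, AA9-CBM1, AA8-AA3_1 and CBM1-GH5_7 of these lists belong to the map node of GH131-CBM1 and GH74. That map was trained on the maltose and Avicel libraries. The medians on Avicel and the place of both genes are therefore not independent evidence. On xylan-galactomannan the medians were 0.32 and 3.71, with 0.04 over all genes. There GH74 had a smaller log2 fold change than all 15 listed genes, and GH131-CBM1 a smaller one than all 7 hemicellulose genes. The latter did not hold without xylan-galactomannan 2, where GH95 had −0.10 and GH131-CBM1 0.46.

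In the fit to all libraries, 4 listed genes, all of the cellulose and beta-glucan list, had a higher log2 fold change on Avicel than GH131-CBM1 (8.23 ± 0.42). AA8-AA3_1 exceeded it by far less than the SE. The values of CBM1-GH5_7 and GH28 were also above that of GH74 (6.95 ± 0.32), within the SE. CBM1-GH6, a cellulase family with cellobiohydrolases, had a log2 fold change of 10.44 ± 0.53 against maltose (adjusted p = 5.33e-08). GH7, another cellobiohydrolase family, had 9.76 ± 0.98 (adjusted p = 2.34e-05), AA9-CBM1, a lytic polysaccharide monooxygenase that oxidizes cellulose, 9.12 ± 0.79 (adjusted p = 5.93e-06), and AA8-AA3_1, a cellobiose dehydrogenase, 8.26 ± 0.65 (adjusted p = 2.37e-06). These values depended on Avicel 1 (lowest TMM factor, 0.739). Its level over the mean of Avicel 2 and 3 was 2.55-fold for CBM1-GH6, 3.61-fold for GH7, 5.77-fold for AA9-CBM1 and 3.90-fold for AA8-AA3_1, against 1.82-fold for GH131-CBM1 and 1.29-fold for GH74. Between Avicel 2 and 3 these genes differed by 1.05-fold to 1.12-fold, GH131-CBM1 by 1.10-fold and GH74 by 1.20-fold.

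Without Avicel 1, chosen after seeing the data, the log2 fold change against maltose was 9.84 ± 0.35 for CBM1-GH6, 8.86 ± 0.83 for GH7, 7.75 ± 0.37 for AA9-CBM1 and 7.28 ± 0.39 for AA8-AA3_1. For GH131-CBM1 it was 7.88 ± 0.36, above AA9-CBM1 and AA8-AA3_1, and for GH74 6.82 ± 0.31. Of the 16 listed genes, 11 were called higher on Avicel with or without this library. In the fit to all libraries 3.66% of all genes tested were called higher in this contrast.

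Among the 8 annotated genes of the map node to which GH131-CBM1 and GH74 belong, the other 6 are these 4 together with CBM1-GH5_7 and GH28. CBM1-GH5_7, of a subfamily of endo-mannanases, rose on Avicel by 7.25 ± 0.56 (adjusted p = 2.08e-06), and GH28, of a polygalacturonase family that acts on pectin, by 7.02 ± 0.55 (adjusted p = 2.37e-06). Without Avicel 1 these values were 6.65 and 6.54, both below GH74. Both genes also rose on xylan-galactomannan, by 3.97 ± 0.48 (adjusted p = 0.000171) and 2.82 ± 0.45 (adjusted p = 0.00117), as did CBM1-GH6 by 1.48 ± 0.36 (adjusted p = 0.0148). GH7 (0.08 ± 0.67), AA9-CBM1 (−0.20 ± 0.56) and AA8-AA3_1 (−0.06 ± 0.48) were not called there, nor were GH131-CBM1 and GH74. The genes of the node thus split on the hemicellulose mixture, with 3 called and 5 not called, although the CBM1-GH6 call was lost without maltose 1 (1.43, adjusted p = 0.052). GH7 differed from GH131-CBM1 and GH74 on aspen, where its log2 fold change of 0.52 ± 0.67 was not called (adjusted p = 0.551).

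Families that can act on the ends or side chains left by glucan and xyloglucan hydrolases differed among themselves. The GH3 genes belong to a family with beta-glucosidases and beta-xylosidases. GH3 1537322 had 173 ± 28.0 CPM on wheat straw and 110 ± 89.6 on xylan-galactomannan (SD, n = 3) against 42.4 ± 14.7 on Avicel and 12.9 ± 3.88 on maltose. GH3 1577052 had 79.7 ± 8.93 CPM on wheat straw, 110 ± 91.1 on xylan-galactomannan, 79.5 ± 27.8 on Avicel and 7.66 ± 2.47 on maltose. On Avicel both were called higher than on maltose, by 1.72 ± 0.47 (adjusted p = 0.0311) and 3.37 ± 0.55 (adjusted p = 0.00148). The first of these calls was lost without maltose 1, maltose 3, Avicel 2 or Avicel 3 (1.53 to 1.65, adjusted p 0.0775 to 0.109). On aspen these genes had 36.7 ± 7.22 and 41.4 ± 1.00 CPM. Both were called higher there, by 1.51 ± 0.47 (adjusted p = 0.0177) and 2.43 ± 0.53 (adjusted p = 0.00244). The GH3 1537322 call on aspen was lost without maltose 1, maltose 3 or aspen 3 (1.35 to 1.44, adjusted p 0.0538 to 0.0606). For GH3 1577052, Avicel was not called against wheat straw (0.00, 95% interval −1.08 to 1.08) or xylan-galactomannan (−0.47, −1.56 to 0.61). The xylan-galactomannan means were set by library 2, and without it they were 58.4 and 61.3 CPM.

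GH95, of a family of alpha-fucosidases that can remove fucose from xyloglucan side chains, had 94.3 ± 25.8 CPM on wheat straw, 79.4 ± 15.9 on aspen, 37.7 ± 6.51 on Avicel and 29.6 ± 6.25 on maltose. It was called higher on wheat straw (1.67 ± 0.31, adjusted p = 0.00163) and on aspen (1.42 ± 0.31, adjusted p = 0.00239), but not on Avicel (0.35 ± 0.31, adjusted p = 0.541). GH2, of a family with beta-galactosidases and beta-mannosidases, had 415 ± 279 CPM on xylan-galactomannan, 290 ± 22.9 on wheat straw, 67.8 ± 13.5 on Avicel and 67.0 ± 19.1 on maltose. It was called higher on xylan-galactomannan (2.63 ± 0.41, adjusted p = 0.000997) and on wheat straw (2.11 ± 0.40, adjusted p = 0.00181). On aspen GH2 had 131 ± 23.1 CPM and was not called (0.97 ± 0.39, adjusted p = 0.057). Its mean on xylan-galactomannan was 261 CPM without library 2, and the log2 fold change 1.92 (adjusted p = 0.00137).

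From wheat straw to Avicel, the direction in which both GH131-CBM1 and GH74 rose, 4 genes of the cellulose and beta-glucan list were called higher and 1 lower, namely GH3 1537322 (−2.02). In the hemicellulose list 1 gene was called higher, CBM1-GH5_7 (1.85, and 1.24 without Avicel 1), and 3 were called lower, namely GH2 (−2.10), GH95 (−1.32) and GH43 1695354 (−4.22), of a family with arabinofuranosidases and xylosidases. Over all genes, 4.91% were called higher and 7.68% lower on Avicel in this contrast.

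**Figure D4:**
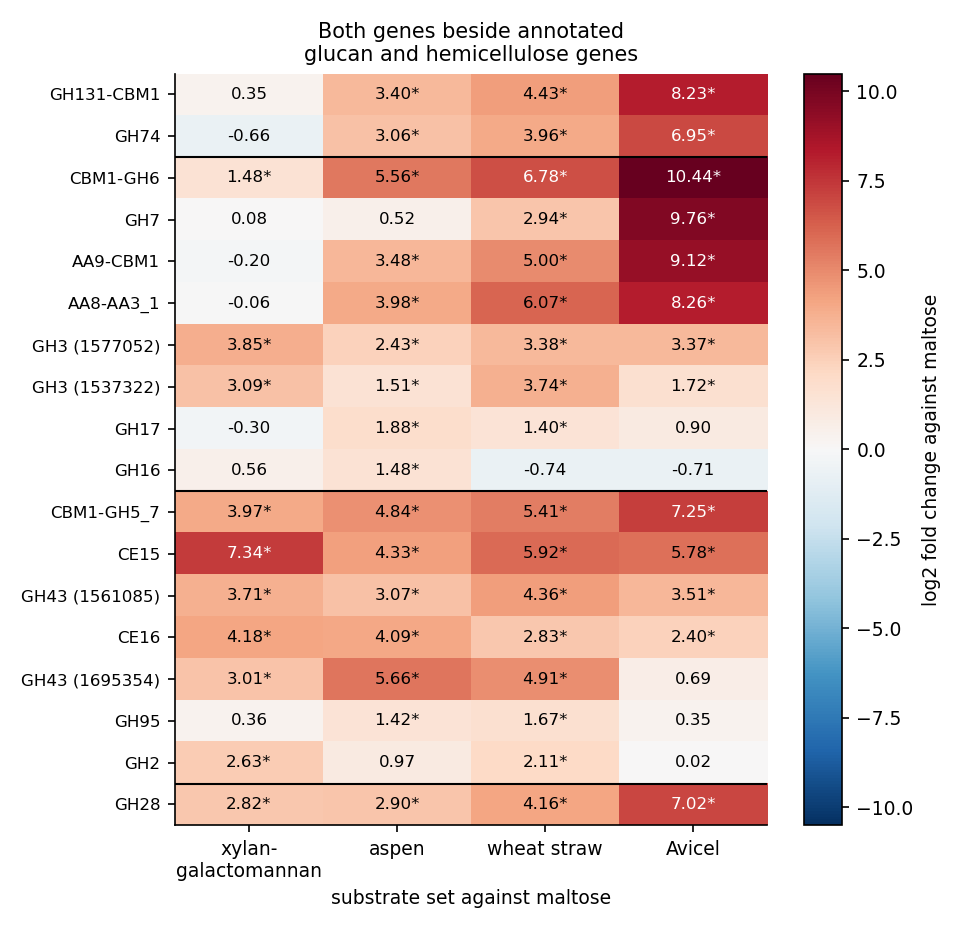
Log2 fold change against maltose of GH131-CBM1, GH74 and the 16 other annotated genes (rows, grouped by list) on each substrate (columns). An asterisk marks a call. On Avicel both genes (8.23 and 6.95) stand beside the cellulose genes at the top of their block, and on xylan-galactomannan (0.35 and −0.66) below every hemicellulose gene, GH95 (0.36) by the least.

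Across the 15 libraries, the log2 CPM of GH131-CBM1 and GH74 correlated with r = 0.99 (Pearson) and 0.90 (Spearman). Without the 3 Avicel libraries r was 0.97, and for deviations from group means it was 0.54. The points share their carbon source and library, so this is a description. Both genes are of 1 node of the map trained on these libraries, those on xylan-galactomannan excepted. Their high r and ranks are therefore not independent evidence. GH74 ranked 6 among the genes most like GH131-CBM1, and GH131-CBM1 ranked 2 among those most like GH74. By deviations from group means these ranks were only 1774 and 382. The 99th percentile of r over all genes was 0.82 for GH131-CBM1 and 0.83 for GH74.

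The gene most like either was the same, protein 1598628, which carries no annotation in the sources used here (r = 0.99 with each). It had 2610 ± 1502 CPM on Avicel, 183 ± 41.4 on wheat straw, 73.1 ± 27.1 on aspen, 9.47 ± 1.31 on xylan-galactomannan and 8.89 ± 1.04 on maltose (SD, n = 3). AA9-CBM1, of the same map node as both, followed among annotated genes, with r = 0.99 for both. It had 9978 ± 10607 CPM on Avicel, with a range of 5.91-fold over the 3 libraries, and 17.9 ± 2.37 on maltose. The other close genes of GH131-CBM1 were 1568110, 1561762 and 1589296 (r = 0.99 each), and those of GH74 were 1578812 and 1561762 (r = 0.98 each), all without annotation here.

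The most like genes differed widely in level. On Avicel 1568110 had 168 ± 22.5 CPM, 1561762 had 675 ± 431, 1589296 had 1560 ± 424 and 1578812 had 1248 ± 205 (SD, n = 3). On maltose the same genes had 7.40 ± 1.15, 1.36 ± 0.52, 6.81 ± 1.89 and 27.7 ± 7.30 CPM. Of the 5 genes most like GH131-CBM1, 1 stayed among the first 5 by Spearman correlation and 2 without the Avicel libraries. For GH74 these numbers were 0 and 2.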

How the data were processed

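Poly(A) RNA of day 3 mycelium was sequenced in 15 libraries. The authors deposited counts per gene model, made by quality filtering of reads, alignment with TopHat2 and counting with HTSeq. Neither tool versions nor the strand setting were given in the sources used here, so antisense or overlapping genes could not be checked. The deposited length column holds another kind of value (other), the gene model length in bases. The normalised table, which the submitters' processing notes ascribe to DESeq 1.5, was not used. Columns not matched to a sample numbered 0, and 0 rows named no gene.

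Samples were grouped by the carbon source in the labels. Counts were fitted with edgeR 4.0.16 in R 4.3.3: filterByExpr (11724 genes left), TMM, robust quasi-likelihood with 1 mean per group, 10 contrasts, and Benjamini-Hochberg adjustment within each (common biological coefficient of variation 0.281). SE was the log2 fold change divided by the root of F. The test was checked on simulated counts. A prior of 1 read was added for ratios and correlations. Library totals of 24209984 to 50428442 put at least 292 counts behind each value of either gene. Even numbers made up 66.5 to 76.5% of each library's counts of 1 to 20 and 52.3 to 56.5% of its larger counts, so counts divided by 2 were tried. Other alternatives were DESeq2 1.42.0, library size scaling, no filter, only the libraries compared, a replicate block, and libraries left out.

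The genes, lists and rules were chosen with earlier results of these data known. Named were both genes in every library, the other 6 annotated genes of their map node, GH95, GH3 and GH2, and for each gene the 5 most correlated over 15 libraries. GH43 1695354 was named after its values were seen, to complete a count.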

Additional observations from a re-analysis of the deposited data

How the results depend on the processing

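Of 260 alternative values for both genes in the 10 contrasts, 254 kept direction and side of the threshold, 5 lost and 1 gained a call, and 0 reversed. All changes of call concerned wheat straw against aspen. For GH131-CBM1 library size scaling gave 0.94 with no call, and leaving out single libraries gave 0.89 to 1.23. For GH74 the latter gave 0.70 to 1.27. Library size scaling shifted the median over all tested genes by −0.46 (Avicel against aspen) to 0.44 (aspen against xylan-galactomannan) on the log2 scale. With the 3 libraries Avicel 1, xylan-galactomannan 2 and maltose 3 left out, the Avicel to xylan-galactomannan value of GH131-CBM1 was 7.44. Xylan-galactomannan 1 was kept, although its mean r to its own group (0.957) was below those of maltose 3 (0.959) and Avicel 1 (0.961). The replicate block gave 8.18 for GH131-CBM1 and 6.94 for GH74 (Avicel against maltose) and changed no call of either gene in any contrast. Same-numbered libraries correlated in their deviations by −0.35 to 0.39, and 3 of 30 pairs exceeded 0.1. The mean was −0.015, against 0.006 for libraries of other numbers and groups. This check showed no pairing by replicate number, but with 3 libraries a group it could miss one.

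The number of all genes called moved by over 1.5 times in 3 contrasts. Avicel against maltose called 950 genes, 541 with only the 6 libraries compared and 1525 without the 3 libraries. For xylan-galactomannan against maltose these numbers were 1015, 444 and 1948, and for Avicel against xylan-galactomannan 1598, 933 and 2515. The cause was not tested. In alternatives chosen after seeing the data, single libraries were left out for the 16 listed genes against maltose. Values near 0 that were not called then changed sign: AA8-AA3_1 (−0.32 to 0.13), GH7 (−0.21 to 0.53) and GH95 (−0.10 to 0.63) on xylan-galactomannan, and GH2 (−0.20 to 0.19) on Avicel. GH17 on Avicel was called only without maltose 2 (1.07). Of the 5 most correlated genes, 1 (Spearman) and 2 (without Avicel) remained for GH131-CBM1, and 0 and 2 for GH74. The ratio of both genes differed between carbon sources with and without the prior count and without any 1 library. A difference of under 2-fold could not be called by the rule used.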
